A study of Mus musculus with 12 samples.

Results

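The genes described here encode the machinery that makes and displays peptides on MHC class I molecules in peritoneal macrophages (PMs). They are the heavy chains *H2-K1* and *H2-D1* and their light chain *B2m*, the peptide transporter genes *Tap1* and *Tap2*, the bridging chaperone gene *Tapbp*, the immunoproteasome subunits *Psmb8*, *Psmb9* and *Psmb10*, and the regulator *Nlrc5*. The 10 genes were taken by name rather than by a rule on their values, though earlier results of these data were known. Each was read through the probe set with the highest mean signal over 12 arrays. All 10 had a probe set assigned to 1 gene symbol, and they are 10 of 18193 genes measured in this way.

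Mouse PMs were transfected and then exposed to exosomes of sensory neurons, and their total RNA was read on Affymetrix mouse arrays, 2 for each of 6 groups. The groups were PMs with antagomir-21, an antisense oligonucleotide against miR-21, given miR-21 exosomes or GFP exosomes; PMs with a scramble oligonucleotide given either kind of exosome; and PMs labeled lipofectamine, the transfection reagent, given either kind. miR-21 exosomes came from neurons that overexpressed miR-21, and GFP exosomes from neurons with a GFP reporter, so that every group received neuronal exosomes and none was left without them. The study's methods name C57BL/6 mice of both sexes, whereas the labels give no age, sex or exposure time for these arrays, and do not say whether the PMs of the lipofectamine groups held any oligonucleotide.

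MHC class I molecules carry short peptides of cytosolic proteins to the cell surface, where CD8 T cells inspect them. Proteasomes cut the proteins, and interferon exchanges the catalytic subunits of the constitutive proteasome for the inducible ones encoded by *Psmb8*, *Psmb9* and *Psmb10*. TAP1 and TAP2 together pump peptides into the endoplasmic reticulum, tapasin (*Tapbp*) holds empty heavy chains beside the transporter, and beta-2 microglobulin completes the complex. NLRC5 is a transactivator that is induced by interferon and drives class I genes through a conserved promoter module. Macrophages express the pathway constitutively and raise it when activated.

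The promoters of the classical class I genes are shown because their shared elements are the best known feature of this family. RefSeq windows of 300 bases (250 before and 50 after the start, build GRCm38.p6) were given for 8 of the 10 genes, and *Tap2* and *Nlrc5* had no entry. Capitals mark matches on either strand to GGGATTCCC (the core of the kappaB element of class I promoters), to GAANNGAAA and GAAANNGAA (cores of interferon response elements, which may overlap each other), to TGACGC (a core like that of cAMP response elements) and to the CCAAT box. In these stretches the box lies on the opposite strand and shows as its complement. The first pair of sequences aligns *H2-K1* (chr17:34000354-34000468, minus strand) with *H2-D1* (chr17:35262913-35263027, plus strand), and *B2m* (chr2:122147538-122147643, plus strand) follows.
H2-K1: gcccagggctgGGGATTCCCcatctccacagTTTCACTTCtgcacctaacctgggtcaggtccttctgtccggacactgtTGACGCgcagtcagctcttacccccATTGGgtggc
H2-D1: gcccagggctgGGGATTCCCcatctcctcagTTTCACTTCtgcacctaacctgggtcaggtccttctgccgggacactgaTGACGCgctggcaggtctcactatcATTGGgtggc
B2m: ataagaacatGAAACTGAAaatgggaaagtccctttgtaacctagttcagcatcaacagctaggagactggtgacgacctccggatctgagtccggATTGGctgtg

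The *H2-K1* and *H2-D1* stretches were identical at 104 of 115 bases (90.4%) and held the same 4 matches in the same order. GGGATTCCC occurred in 0.353% of 32851 promoter windows in the table, and among the members in these 2 alone. GAANNGAAA occurred in 7.52% of windows and TGACGC in 7.4%, both in *H2-K1* and *H2-D1*, and GAAANNGAA in 8.56%, with *B2m* as the member. CCAAT occurred in 37.4% of windows and in 6 of the 8 members with an entry (*B2m*, *H2-D1*, *H2-K1*, *Psmb9*, *Tap1* and *Tapbp*). These are matches of letters, and binding was not measured.

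*Tap1* and *Psmb9* are shown because they are transcribed in opposite directions from one stretch, so that their windows shared 275 bases (chr17:34187306-34187580, written on the plus strand of *Tap1*). It held 1 of the matches above, a CCAAT.
Tap1 and Psmb9: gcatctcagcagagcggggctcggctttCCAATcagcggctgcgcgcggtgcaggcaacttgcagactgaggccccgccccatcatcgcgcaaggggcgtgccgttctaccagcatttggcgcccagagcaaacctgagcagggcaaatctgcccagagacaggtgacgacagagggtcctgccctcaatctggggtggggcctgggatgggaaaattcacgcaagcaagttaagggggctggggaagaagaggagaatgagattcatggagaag

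The mature miRNA that the exosomes carried and the antagomir was directed against is given with its seed, bases 2 to 8, in capitals (RefSeq, GRCm38.p6, chr11:86584120-86584141, minus strand). The arrays do not read it, and no sites for it were sought in the members.
mmu-miR-21a-5p: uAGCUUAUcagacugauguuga

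The deposited values are log2 signals, and a difference of 1 is a doubling. The number of arrays limits their precision. Arrays of the same group correlated across genes with r of 0.478 to 0.785 (mean 0.591, 6 pairs), and arrays of different groups with r of 0.42 to 0.8 (mean 0.602, 60 pairs). With 2 arrays against 2 the smallest exact 2-sided permutation p is 0.333, so that groups were compared with limma, which pools the spread over genes and groups. At an adjusted p under 0.05, limma called 0 of 18193 genes (0%) in each of the 9 comparisons, and at an unadjusted p under 0.05 it called 3.84% to 5.7% of them. The members made up 90 tests, of which 2 had an unadjusted p under 0.05 (*Nlrc5* and *Tap2*, each in a comparison of exosomes). Every fold change below is therefore an estimate that did not pass the adjusted test.

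The chains of the class I molecule were read with broad spread within groups. *B2m*, the invariant light chain, had log2 signals of 17.16 and 15.30 in PMs with antagomir-21 and miR-21 exosomes and 16.91 and 17.10 with antagomir-21 and GFP exosomes. It had 15.66 and 16.83 with scramble and miR-21 exosomes, 16.33 and 16.48 with scramble and GFP exosomes, 16.72 and 15.78 with lipofectamine and miR-21 exosomes, and 15.33 and 16.56 with lipofectamine and GFP exosomes. The highest and the lowest of the 12 arrays were thus replicates of one group, PMs with antagomir-21 and miR-21 exosomes. Over all arrays *B2m* was at 16.35 ± 0.67 (SD, n = 12), with an SD of 0.78 within groups and 0.35 among the 6 group means.

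*H2-K1*, a classical heavy chain, had log2 signals of 15.04 and 12.89 with antagomir-21 and miR-21 exosomes and 14.66 and 14.81 with antagomir-21 and GFP exosomes. Its values were 13.26 and 12.63 with scramble and miR-21 exosomes, 11.94 and 13.81 with scramble and GFP exosomes, 14.45 and 12.60 with lipofectamine and miR-21 exosomes, and 13.39 and 14.25 with lipofectamine and GFP exosomes. Of the 4 antagomir-21 arrays, 3 lay above every scramble array, and the other lay among them. *H2-D1*, the other classical heavy chain, had 14.93 and 12.83 with antagomir-21 and miR-21 exosomes, 14.63 and 14.81 with antagomir-21 and GFP exosomes, 13.01 and 13.07 with scramble and miR-21 exosomes, 12.71 and 13.76 with scramble and GFP exosomes, 14.56 and 12.86 with lipofectamine and miR-21 exosomes, and 13.24 and 14.22 with lipofectamine and GFP exosomes. It repeated the order of *H2-K1* on most arrays. Both were read by probe sets whose suffix marks probes that can match other class I genes, so these signals may hold several heavy chains.

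The members of the peptide loading complex did not share one pattern. *Tap1*, which encodes one chain of the transporter, had log2 signals of 10.24 and 8.58 with antagomir-21 and miR-21 exosomes, 9.37 and 10.17 with antagomir-21 and GFP exosomes, 7.89 and 10.09 with scramble and miR-21 exosomes, 10.41 and 10.44 with scramble and GFP exosomes, 9.66 and 10.17 with lipofectamine and miR-21 exosomes, and 8.28 and 9.18 with lipofectamine and GFP exosomes. PMs with scramble and GFP exosomes gave the 2 highest of the 12 values. *Tap2*, its partner chain, had 6.70 and 7.36 with antagomir-21 and miR-21 exosomes, 8.44 and 9.17 with antagomir-21 and GFP exosomes, 7.48 and 6.71 with scramble and miR-21 exosomes, 9.97 and 8.77 with scramble and GFP exosomes, 10.29 and 8.98 with lipofectamine and miR-21 exosomes, and 8.08 and 8.65 with lipofectamine and GFP exosomes. The 4 lowest arrays for *Tap2* were the 4 that combined miR-21 exosomes with antagomir-21 or scramble.

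*Tapbp*, the tapasin gene, had log2 signals of 13.07 and 11.37 with antagomir-21 and miR-21 exosomes, 12.69 and 13.20 with antagomir-21 and GFP exosomes, 10.34 and 11.64 with scramble and miR-21 exosomes, 10.79 and 12.88 with scramble and GFP exosomes, 12.82 and 11.82 with lipofectamine and miR-21 exosomes, and 11.61 and 12.75 with lipofectamine and GFP exosomes. Its SD was 0.98 within groups and 0.64 among group means, and each transfection's arrays overlapped those of the others.

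The inducible proteasome subunits varied little between groups, with 1 exception. *Psmb8*, which encodes the chymotrypsin-like subunit beta5i, had log2 signals of 8.61 and 8.87 with antagomir-21 and miR-21 exosomes, 9.66 and 7.91 with antagomir-21 and GFP exosomes, 9.25 and 8.09 with scramble and miR-21 exosomes, 7.97 and 9.83 with scramble and GFP exosomes, 9.97 and 9.25 with lipofectamine and miR-21 exosomes, and 8.0 and 9.94 with lipofectamine and GFP exosomes. In each GFP exosome group its replicates lay further apart than the group means did. *Psmb9*, which encodes beta1i, had 9.33 and 8.81 with antagomir-21 and miR-21 exosomes, 9.31 and 8.88 with antagomir-21 and GFP exosomes, 8.74 and 9.41 with scramble and miR-21 exosomes, 8.81 and 9.49 with scramble and GFP exosomes, 9.62 and 9.29 with lipofectamine and miR-21 exosomes, and 9.45 and 8.51 with lipofectamine and GFP exosomes. As deposited it was the steadiest of the 10 genes, at 9.14 ± 0.36 (SD, n = 12), and its 6 group means spanned 0.48. After quantile normalization its SD was 0.43, above that of *B2m*, 0.35.

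*Psmb10*, which encodes beta2i, had log2 signals of 10.73 and 10.31 with antagomir-21 and miR-21 exosomes, 10.57 and 11.07 with antagomir-21 and GFP exosomes, 10.43 and 6.64 with scramble and miR-21 exosomes, 9.76 and 10.61 with scramble and GFP exosomes, 10.39 and 9.45 with lipofectamine and miR-21 exosomes, and 10.39 and 10.71 with lipofectamine and GFP exosomes. A single array, replicate 2 of scramble with miR-21 exosomes, stood far below the other 11, which ran from 9.45 up. Comparisons that include this array are given for *Psmb10* with and without it.

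*Nlrc5*, the transactivator, had log2 signals of 11.35 and 10.55 with antagomir-21 and miR-21 exosomes, 12 and 12.34 with antagomir-21 and GFP exosomes, 9.61 and 9.70 with scramble and miR-21 exosomes, 10.77 and 12.21 with scramble and GFP exosomes, 10.78 and 11.47 with lipofectamine and miR-21 exosomes, and 11.02 and 12.37 with lipofectamine and GFP exosomes. Both arrays of scramble with miR-21 exosomes lay below the other 10. Within each transfection the miR-21 exosome mean was below the GFP exosome mean, and the arrays did not overlap after antagomir-21 or after scramble, whereas they overlapped after lipofectamine.

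**Figure D1:**
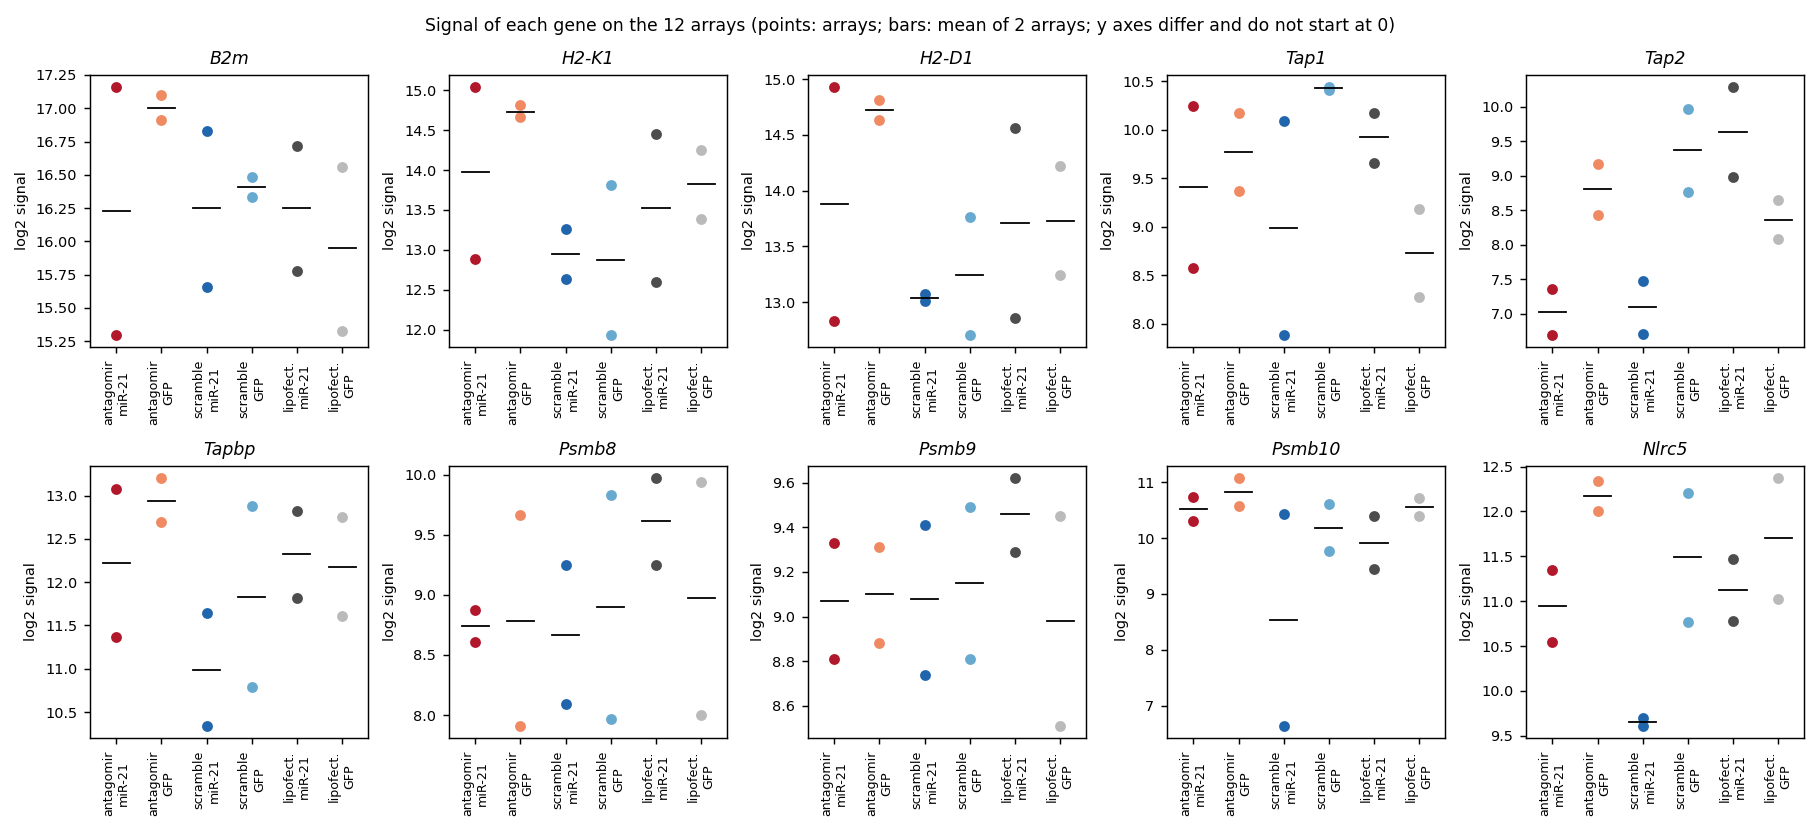
Log2 signal (y axis, a different range in each panel) of the 10 genes on each of 12 arrays, by group (x axis); points are arrays and bars are means of 2 arrays. *Tap2* is lowest on the 4 arrays of antagomir-21 or scramble with miR-21 exosomes, *Nlrc5* is lowest with scramble and miR-21 exosomes, and 1 *Psmb10* value, 6.64, stands alone.

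Only *Tap2* and *Nlrc5* of the 10 genes had group means that differed more among themselves than replicates did within groups. The share of all genes that do so was not counted, so this sets neither gene apart. The SD among the 6 group means was 1.11 for *Tap2* against 0.65 within groups, and 0.86 for *Nlrc5* against 0.65. For *Tap2* the means ran, low to high, from 7.03 with antagomir-21 and miR-21 exosomes through 7.10 (scramble, miR-21), 8.36 (lipofectamine, GFP), 8.81 (antagomir-21, GFP) and 9.37 (scramble, GFP) to 9.64 with lipofectamine and miR-21 exosomes. Neighbors in that order overlapped, other than lipofectamine with GFP exosomes and scramble with miR-21 exosomes, whose arrays were apart. For *Nlrc5* the means ran from 9.65 with scramble and miR-21 exosomes through 10.95 (antagomir-21, miR-21), 11.12 (lipofectamine, miR-21), 11.49 (scramble, GFP) and 11.70 (lipofectamine, GFP) to 12.17 with antagomir-21 and GFP exosomes, and the lowest group alone did not overlap its neighbor. limma's moderated F test over the 6 groups gave an adjusted p of 0.88 for *Tap2* and of 1 for each of the other 9 members.

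The first comparison asked what exosomes with miR-21 did to the pathway, over all transfections. Relative to GFP exosomes, miR-21 exosomes went with lower signals of 8 members and higher signals of 2. The median log2 fold change was −0.34, against −0.02 over all genes. All 10 members had a mean signal at or above the median of all genes. The median over all genes, here and in the comparisons below, is thus not one for genes of like signal. One of 10 had an unadjusted p under 0.05, beside 5.45% of all genes. That member was *Nlrc5*, at 10.58 ± 0.79 with miR-21 exosomes and 11.78 ± 0.71 with GFP exosomes (SD, n = 6 each), a log2 fold change of −1.21 (SE 0.53, 95% CI −2.38 to −0.04, limma adjusted p = 0.89). The arrays of the exosome groups overlapped for *Nlrc5* and for every other member, as they did for most genes (0.286% of genes had no overlap).

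*Tap2* followed, at 7.92 ± 1.43 with miR-21 exosomes and 8.85 ± 0.66 with GFP exosomes (SD, n = 6 each), a log2 fold change of −0.93 (SE 0.53, limma adjusted p = 0.97). *Psmb10* had −0.86 (SE 0.68, limma adjusted p = 0.97), which became −0.23 without the single low array. The members that were higher were *Psmb8*, at 9.01 ± 0.64 with miR-21 exosomes and 8.88 ± 1.02 with GFP exosomes, and *Psmb9*, at 9.20 ± 0.35 and 9.07 ± 0.40 in the same order (SD, n = 6 each). Both differences were under the spread of their replicates. The array median was 0.20 higher with miR-21 exosomes on the log2 scale, and with each array centered on it all 10 members were lower with miR-21 exosomes (median −0.54), *Psmb8* and *Psmb9* included. The *Nlrc5* call was kept in 4 of 12 fits that left out 1 array (log2 fold change −1.45 to −0.97) and was lost without any of the other 8. It was also lost, at the same fold change, with the most variable probe set of each gene (limma adjusted p = 0.858) and with a replicate block (0.923).

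The question for antagomir-21 was whether blocking miR-21 in the macrophage moved the pathway. Over both exosomes, 6 members were higher with antagomir-21 than with scramble and 4 were lower. The median over the 10 was 0.64 on the log2 scale, against −0.00 over all genes. Under quantile normalization or median centering 9 were higher, as *Tap1*, *Psmb8* and *Psmb9*, all near 0, changed sign under one or both. None of the 10 had an unadjusted p under 0.05 from limma, beside 5.16% of all genes, and none had arrays apart, beside 1.97% of genes. The estimates that stood out were those of the heavy chains, *Tapbp*, *Psmb10* and *Nlrc5*.

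*H2-K1* was at 14.35 ± 0.99 with antagomir-21 and 12.91 ± 0.81 with scramble (SD, n = 4 each), and its log2 fold change was 1.44 (SE 0.78, 95% CI −0.29 to 3.17, limma adjusted p = 0.992). *H2-D1* was at 14.30 ± 0.99 with antagomir-21 and 13.14 ± 0.44 with scramble (SD, n = 4 each), and its log2 fold change was 1.16 (SE 0.72, limma adjusted p = 0.992). *Tapbp* had a log2 fold change of 1.17 (SE 0.76, limma adjusted p = 0.995), which was 0.65 without replicate 1 of scramble with GFP exosomes. For the heavy chains the array that held the difference back was replicate 2 of antagomir-21 with miR-21 exosomes. Without it *H2-K1* had 1.98 and *H2-D1* had 1.69, both past an unadjusted 0.05 (limma adjusted p = 0.534 and 0.57), and without replicate 1 of the same group they had 0.90 and 0.63. *H2-K1* also passed an unadjusted 0.05 without replicate 2 of scramble with GFP exosomes (1.91, limma adjusted p = 0.623).

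*Psmb10* was at 10.67 ± 0.32 with antagomir-21 and 9.36 ± 1.85 with scramble (SD, n = 4 each), and its log2 fold change of 1.31 (SE 0.83, limma adjusted p = 0.994) came to 0.36 without the low scramble array. *Nlrc5* was at 11.56 ± 0.79 with antagomir-21 and 10.57 ± 1.21 with scramble, and its log2 fold change was 0.99 (SE 0.65, limma adjusted p = 0.995). *B2m* at 16.62 ± 0.89 and 16.33 ± 0.49, *Tap1* at 9.59 ± 0.78 and 9.71 ± 1.22, *Tap2* at 7.92 ± 1.10 and 8.23 ± 1.44, *Psmb8* at 8.76 ± 0.72 and 8.78 ± 0.90 and *Psmb9* at 9.08 ± 0.27 and 9.11 ± 0.39, each with antagomir-21 first, differed by less than their replicates.

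Split by exosome, the heavy chain arrays were apart among PMs with GFP exosomes and overlapped among those with miR-21 exosomes. With GFP exosomes *H2-K1* was at 14.73 ± 0.11 with antagomir-21 and 12.87 ± 1.33 with scramble (SD, n = 2 each; log2 fold change 1.86, SE 1.10, limma adjusted p = 1), and *H2-D1* at 14.72 ± 0.13 and 13.24 ± 0.74 in the same order (1.48, SE 1.02, limma adjusted p = 1). Leaving out replicate 1 or 2 of scramble with GFP exosomes moved *H2-K1* to 0.92 or 2.80 and *H2-D1* to 0.95 or 2.0. The arrays were also apart for *B2m*, at 17.00 ± 0.14 with antagomir-21 and 16.41 ± 0.11 with scramble. *Tap1* was apart in the other direction, at 9.77 ± 0.56 with antagomir-21 and 10.43 ± 0.02 with scramble, whereas the mean of its probe sets was higher with antagomir-21 (log2 fold change 0.51). These 4 of 10 members stand beside 35.8% of all genes with arrays apart, a share near that of the members. None of the 10 members was called by limma at an unadjusted p under 0.05, beside 5.38% of all genes.

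Among PMs with miR-21 exosomes, *Nlrc5* alone had arrays apart, at 10.95 ± 0.57 with antagomir-21 and 9.65 ± 0.06 with scramble (SD, n = 2 each; log2 fold change 1.30, SE 0.92, limma adjusted p = 1). That is 1 of 10 members, beside 26.2% of all genes. *Psmb10* had a larger estimate, 1.99 (SE 1.18, limma adjusted p = 1), which was 0.09 without the low array. None of the 10 was called at an unadjusted p under 0.05 by limma, beside 5.3% of genes. The difference between the exosome effect after antagomir-21 and that after scramble, the interaction of the design, ran from −0.84 for *H2-K1* to 1.35 for *Psmb10*, with no member called beside 5.36% of genes. Both ends rested on single arrays: *Psmb10* had −0.54 without the low array, and *H2-K1* had 0.24 without replicate 2 of antagomir-21 with miR-21 exosomes. The narrowest 95% interval of a member, that of *Psmb9*, ran from −2.59 to 2.68, so that the difference was measured coarsely.

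Scramble and lipofectamine were compared as the 2 kinds of transfection without antagomir-21. Of the 10 members 8 were lower with scramble, and 9 under quantile normalization, where *B2m* changed sign. The median log2 fold change was −0.67, against −0.00 over all genes. The 5 lowest estimates were those of *Psmb10* (−0.87, SE 0.83; 0.07 without the low array), *Nlrc5* (−0.84, SE 0.65), *Tapbp* (−0.83, SE 0.76), *Tap2* (−0.77, SE 0.65) and *H2-K1* (−0.76, SE 0.78), each with an adjusted p of 1 from limma. Without replicate 1 of scramble with GFP exosomes *Tapbp* had −0.31, *H2-K1* −0.29 and *Nlrc5* −0.48, and without replicate 1 of lipofectamine with miR-21 exosomes *Tap2* had −0.44 and *H2-K1* −0.30. *Tap1* was at 9.71 ± 1.22 with scramble and 9.32 ± 0.80 with lipofectamine, and *B2m* at 16.33 ± 0.49 and 16.10 ± 0.66 in the same order (SD, n = 4 each). No member was called at an unadjusted p under 0.05, beside 4.14% of genes, and no member's arrays were apart, beside 2.08%. The scramble arrays served in this comparison and in that with antagomir-21, so that low scramble values enter both.

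**Figure D2:**
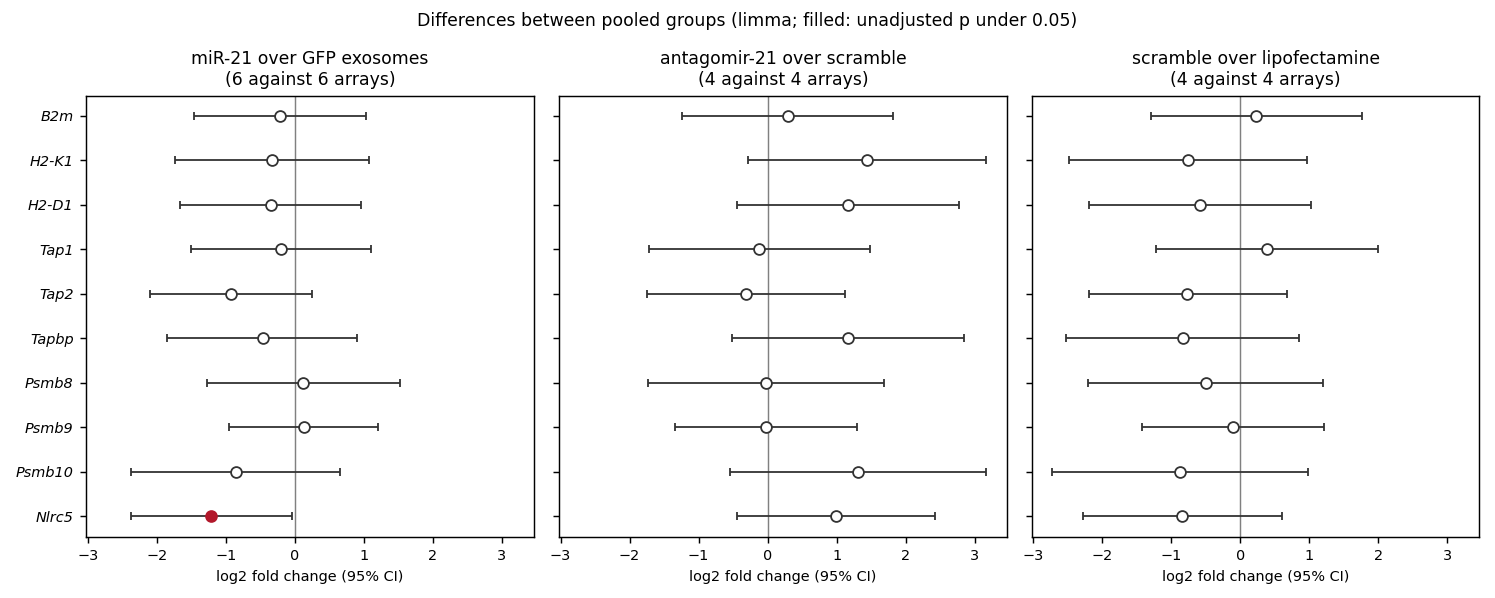
Log2 fold change (x axis) of each gene (y axis) with its 95% confidence interval from limma, for miR-21 over GFP exosomes (6 against 6 arrays), antagomir-21 over scramble and scramble over lipofectamine (4 against 4 arrays each). The interval of *Nlrc5* in the first panel, −2.38 to −0.04, is the one that leaves out 0, and *H2-K1* has the highest estimate in the second, 1.44.

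Within transfections, the exosome effect on the transporter genes took opposite directions. After antagomir-21 miR-21 exosomes went with lower means of all 10 members (median log2 fold change −0.74, against −0.08 over all genes). After scramble 9 of 10 were lower (median −0.54, against 0.04 over all genes; all 10 with each array centered on its median, median −0.72), and after lipofectamine 6 of 10 were higher (median 0.22, against −0.02; 5 of 10 with each array centered on its median and 7 of 10 under quantile normalization). Many of these values lay close to 0, and 1 of the 30 had an unadjusted p under 0.05: *Tap2* after scramble, beside 5.7% of genes in that comparison, 5.68% after antagomir-21 and 3.84% after lipofectamine.

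After scramble *Tap2* was at 7.10 ± 0.55 with miR-21 exosomes and 9.37 ± 0.85 with GFP exosomes (SD, n = 2 each), a log2 fold change of −2.27 (SE 0.91, 95% CI −4.30 to −0.24, limma adjusted p = 0.814). It was 4.83-fold lower. After antagomir-21 *Tap2* was at 7.03 ± 0.47 with miR-21 exosomes and 8.81 ± 0.52 with GFP exosomes, a log2 fold change of −1.78 (SE 0.91, limma adjusted p = 0.979). After lipofectamine it was at 9.64 ± 0.92 with miR-21 exosomes and 8.36 ± 0.40 with GFP exosomes, a log2 fold change of 1.27 (SE 0.91, limma adjusted p = 0.999). The arrays of *Tap2* did not overlap in any of the 3 transfections, and the direction after lipofectamine was opposite to the others. Arrays apart are common at 2 against 2: after antagomir-21 2 of 10 members had them beside 30.9% of genes, after scramble 3 beside 28.8%, and after lipofectamine 3 beside 35.4%. The call after scramble was kept in 10 of 12 fits that left out 1 array and lost without replicate 2 of scramble with miR-21 exosomes (−1.89, limma adjusted p = 0.817) or replicate 1 of scramble with GFP exosomes (−1.67, limma adjusted p = 1). It was also lost, at the same fold change, with a variance trend (limma adjusted p = 0.999) and with the most variable probe set of each gene (0.914). The estimate after lipofectamine was 0.62 without replicate 1 of the miR-21 exosome group and 1.93 without replicate 2.

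*Tap1* did likewise in 2 of the 3 transfections. It was at 8.99 ± 1.55 with miR-21 exosomes and 10.43 ± 0.02 with GFP exosomes after scramble (log2 fold change −1.44, SE 1.02, limma adjusted p = 0.999), and at 9.92 ± 0.36 and 8.73 ± 0.64 in the same order after lipofectamine (1.19, SE 1.02, limma adjusted p = 0.999; SD, n = 2 each). Without replicate 1 of scramble with miR-21 exosomes *Tap1* had −0.34, and without replicate 2 it had −2.54, past an unadjusted 0.05 (limma adjusted p = 0.712), whereas after lipofectamine it had 0.74 without replicate 1 of the GFP exosome group. After scramble *Tap1* had 0.61 as the mean of its probe sets and 4.44 with the most variable one, both in the opposite direction. The value of 4.44 passed an unadjusted 0.05 (limma adjusted p = 0.869). After antagomir-21 its arrays overlapped, at 9.41 ± 1.17 with miR-21 exosomes and 9.77 ± 0.56 with GFP exosomes. Opposite directions without overlap are not rare at 2 arrays a group: they occurred in 4.02% of genes for lipofectamine and scramble, 5.38% for lipofectamine and antagomir-21, and 4.2% for antagomir-21 and scramble. The difference of 2 such effects, tested by limma after the values were seen, had an unadjusted p under 0.05 for *Tap2* alone among the members, both for lipofectamine against scramble (beside 3.8% of genes) and for lipofectamine against antagomir-21 (beside 4.83%), and at adjusted p of 1 and 0.999.

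The *Nlrc5* mean was lower with miR-21 exosomes in each transfection. The log2 fold change was −1.83 after scramble (SE 0.92, limma adjusted p = 0.932), where *Nlrc5* was at 9.65 ± 0.06 with miR-21 exosomes and 11.49 ± 1.02 with GFP exosomes, and −1.22 after antagomir-21 (SE 0.92, limma adjusted p = 1). After lipofectamine it was at 11.12 ± 0.49 with miR-21 exosomes and 11.70 ± 0.95 with GFP exosomes (SD, n = 2 each), and the arrays overlapped. *Psmb10* had −1.65 after scramble (SE 1.18, limma adjusted p = 0.999), which was 0.24 without the low array. *H2-K1* and *H2-D1* had overlapping exosome arrays in every transfection.

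**Figure D3:**
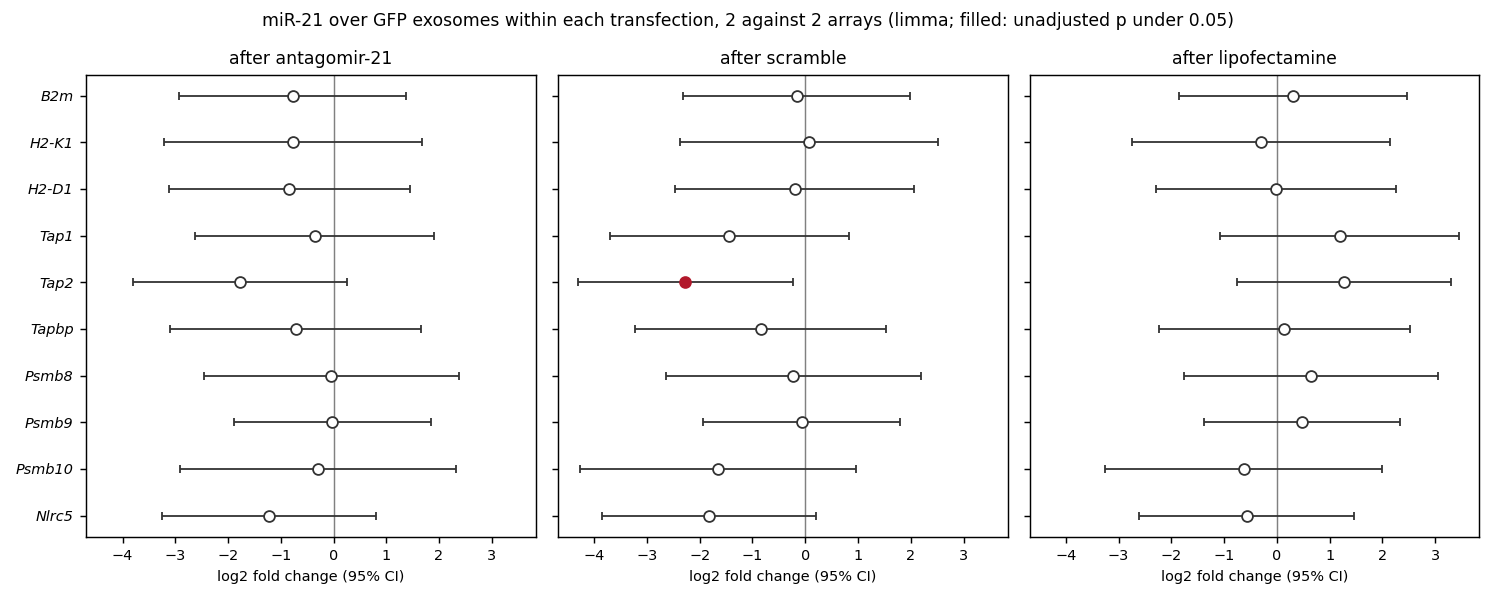
Log2 fold change of miR-21 over GFP exosomes (x axis) with its 95% confidence interval from limma for each gene (y axis), 2 against 2 arrays after antagomir-21, scramble and lipofectamine. *Tap2* runs from −2.27 after scramble and −1.78 after antagomir-21 to 1.27 after lipofectamine, and its interval after scramble is the one that leaves out 0.

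Some of the genes went up and down together from array to array. *H2-K1* and *H2-D1* correlated at r = 0.96 over the 12 arrays, *H2-D1* and *Tapbp* at 0.88, and *B2m* and *H2-D1* and likewise *Nlrc5* and *Tapbp* at 0.77. Over all 45 pairs the median r was 0.31, and 12 pairs exceeded 0.5. *Tap1* and *Psmb9*, which share a promoter stretch, correlated at 0.30, and the closest member to *Tap2* was *Nlrc5*, at 0.38. After quantile normalization these pairs had 0.46 and 0.57, and *H2-D1* and *Tapbp* had 0.69. The median r was then 0.45, and 16 pairs exceeded 0.5. Over deviations from group means of the deposited values, *Tap2* and *Nlrc5* had −0.44. The arrays share scaling, groups and probes, so these correlations describe the 12 arrays alone.

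**Figure D4:**
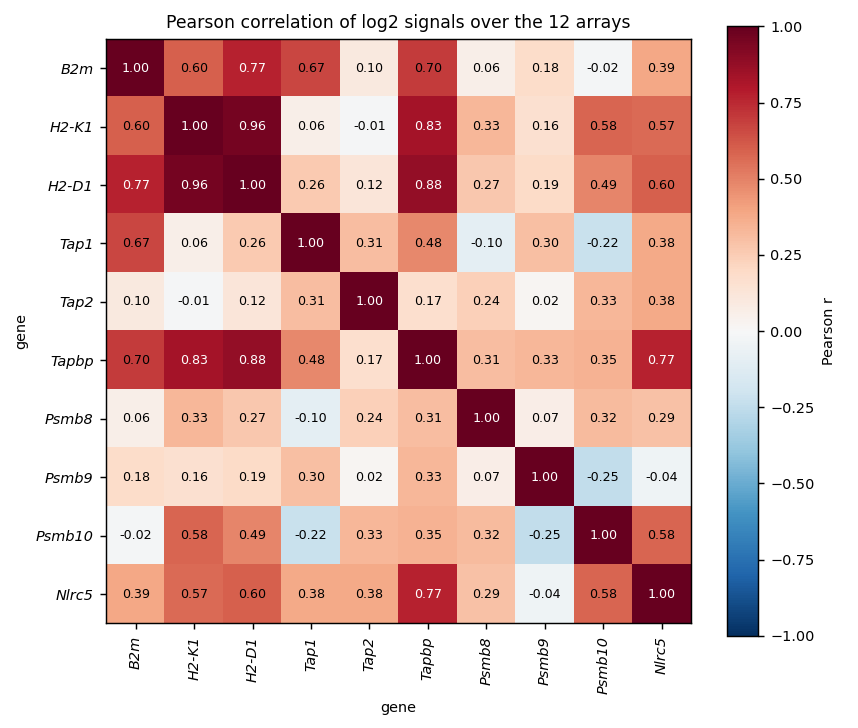
Pearson correlation of log2 signals over the 12 arrays for each pair of the 10 genes (both axes; color and printed value are r). The heavy chains, *B2m* and *Tapbp* form the warm block, at 0.60 to 0.96. *Nlrc5* correlates with *Tapbp* at 0.77 but with *B2m* at 0.39, and outside the block *B2m* and *Tap1* reach 0.67. *Psmb8*, *Psmb9* and *Tap2* correlate weakly with most members in the deposited values. After quantile normalization, not shown, *Psmb8* and *Tap2* had r of 0.57 and 0.54 with *B2m*.

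The mean of the 10 genes, each centered on its own mean, was 0.41 and −0.62 with antagomir-21 and miR-21 exosomes, 0.52 and 0.64 with antagomir-21 and GFP exosomes, −0.74 and −0.83 with scramble and miR-21 exosomes, −0.36 and 0.52 with scramble and GFP exosomes, 0.62 and −0.14 with lipofectamine and miR-21 exosomes, and −0.43 and 0.41 with lipofectamine and GFP exosomes (log2). Scramble with miR-21 exosomes was the one group with both arrays low, and antagomir-21 with GFP exosomes the one with both high. This mean moved with how wide each array's distribution was: it correlated with the array SD, which ran from 2.04 to 2.48, at r = 0.78 (rho = 0.72, 12 arrays), and at r = 0.70 after quantile normalization. The members' mean also correlated, at r = 0.58, with that of the 10% of genes with the highest signal, centered likewise. With antagomir-21 those genes averaged 0.43 and −0.58 with miR-21 exosomes and 0.43 and 0.42 with GFP exosomes. After scramble they averaged −0.76 and 0.38 with miR-21 exosomes and −0.23 and 0.28 with GFP exosomes. After lipofectamine they averaged −0.27 and −0.16 with miR-21 exosomes and −0.16 and 0.21 with GFP exosomes. The part of array width or bright genes in the differences above was not tested beyond the normalizations.

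**Figure D5:**
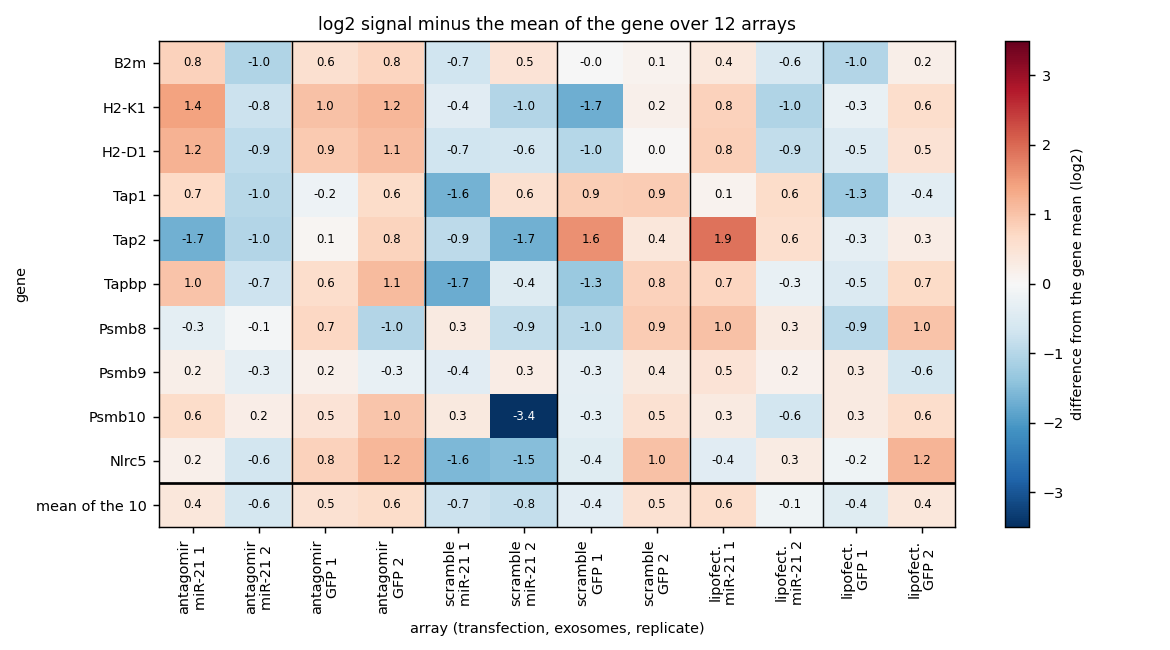
Log2 signal of each gene (rows) on each array (columns, by group and replicate) minus the gene's mean over 12 arrays, with the mean of the 10 genes in the bottom row. The bottom row is −0.7 and −0.8 on both arrays of scramble with miR-21 exosomes and 0.5 and 0.6 on both of antagomir-21 with GFP exosomes.

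Outside the set, the genes whose signals were most like that mean, out of 9087 at or above the median signal, were *Pld3*, a lysosomal exonuclease gene (r = 0.97), *Alkbh3*, a nucleic acid demethylase gene (0.94), *Cfp*, which encodes properdin of the complement system (0.94), *Rps3a1*, a ribosomal protein gene (0.94), and *Selenof*, a selenoprotein gene of the endoplasmic reticulum (0.94). Over quantile-normalized arrays the same genes had r of 0.76 to 0.95. Their likeness is over 12 arrays and was selected from the whole list.

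A gene can be read by several probe sets, and those of the class I genes did not always agree. *H2-D1* had 9 assigned to it alone, with log2 fold changes for antagomir-21 over scramble that ran from −1.30 to 3.15, and *H2-K1* had 4, from 0.56 to 1.44. The brightest pair for *H2-D1*, with means of 13.72 and 13.60, correlated at 0.96 and gave 1.16 and 1.34. *B2m* had 2 probe sets, which correlated at 0.85 and gave 0.29 and 0.92. *Tap1* had 4, of which the brightest had a mean of 9.54 and the other 3 means of 5.20 to 5.66, and those 3 correlated with it at −0.24 to 0.32, so its values above rest on 1 probe set. *Tapbp* and *Psmb8* had 2 each, the dimmer of which correlated with the one used at −0.03 and 0.13, and *Tap2*, *Psmb9*, *Psmb10* and *Nlrc5* had 1.

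Proteasome and peptide loading genes outside the set had estimates mostly in the direction of the members. The 3 catalytic subunits of the constitutive proteasome (*Psmb5*, *Psmb6* and *Psmb7*), which the inducible subunits replace, were 3 of 3 lower with miR-21 exosomes over all transfections (median log2 fold change −0.93) and 3 of 3 higher with antagomir-21 than with scramble (median 0.74). The chaperones and trimming enzyme of peptide loading (*Calr*, *Canx*, *Pdia3*, *Erap1* and *Tapbpl*) were 5 of 5 lower in the first comparison (median −0.51) and 5 of 5 higher in the second (median 0.89). The 11 other subunits of the 20S core were 8 lower and 3 higher (median −0.17) in the first, and 10 higher and 1 lower (median 0.25; 6 and 5 under quantile normalization) in the second. No gene of these lists was called by limma at an unadjusted p under 0.05 in either comparison.

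The proteasome activator and assembly genes measured (*Psme1*, *Psme3* and *Pomp*) were 3 of 3 lower with miR-21 exosomes (median −0.78) and 3 of 3 higher with antagomir-21 (median 0.40), without a call. Of 16 other class I heavy chain genes, 7 were measured by a probe set of their own, and 5 of these were higher and 2 lower with miR-21 exosomes (median 0.17; 3 and 4 with each array centered on its median). *Mr1*, which encodes the molecule that presents vitamin B metabolites to T cells, was called in this comparison, at 6.74 ± 1.51 with miR-21 exosomes and 8.84 ± 0.77 with GFP exosomes (SD, n = 6 each; log2 fold change −2.11, SE 0.77, limma adjusted p = 0.817). Its other probe set gave 0.41 in the opposite direction, and the call was lost, among others, without replicate 1 of antagomir-21 with miR-21 exosomes (−1.49). None of the 7 was called for antagomir-21 over scramble, where 2 were higher and 5 lower (median −0.10; 4 higher and 3 lower with each array centered on its median).

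Interferon receptors, kinases and class I regulators gave 11 lower and 5 higher of 16 measured with miR-21 exosomes (median −0.16), and 9 higher and 7 lower with antagomir-21 (median 0.03), with no call in either. *Rfx5*, a subunit of the complex that binds class I and class II promoters together with NLRC5 or CIITA, was at 7.53 ± 0.17 with miR-21 exosomes and 9.67 ± 0.21 with GFP exosomes after lipofectamine (SD, n = 2 each; log2 fold change −2.14, SE 0.92, limma adjusted p = 0.999). Its means were 9.56 and 10.07 after antagomir-21 and 9.41 and 9.23 after scramble, miR-21 exosomes first in each pair. The class II genes, 5 measured of 6, were 3 lower and 2 higher with miR-21 exosomes (median −0.23) and 4 higher and 1 lower with antagomir-21 (median 0.91), without a call.

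Markers of the macrophage had a high mean on every array. The lowest single value was that of *Itgam*, 5.39 on replicate 1 of scramble with GFP exosomes. The mean log2 signal of 7 macrophage genes ran from 11.68 to 13.60 over the arrays, and it was 12.06 to 13.55 with antagomir-21 and miR-21 exosomes, 13.40 to 13.60 with antagomir-21 and GFP exosomes, 12.25 to 12.87 with scramble and miR-21 exosomes and 11.68 to 12.93 with scramble and GFP exosomes. Of the 7, 6 were higher with antagomir-21 than with scramble (median log2 fold change 0.78), in the same direction as the heavy chains. With GFP exosomes, where the heavy chain arrays were apart, 7 of 7 were higher (median 1.02), and 6 of 10 members were (median 0.62). With miR-21 exosomes 5 of 7 were higher with antagomir-21 (median 0.27), where 7 of 10 members were (median 0.63). For miR-21 over GFP exosomes 5 of 7 were lower over all transfections (median −0.18, and 0.03 under quantile normalization). After antagomir-21 7 of 7 were lower (median −0.89), where all 10 members were lower. After scramble 5 of 7 were higher (median 0.13), where 9 of 10 members were lower. After lipofectamine 5 of 7 were higher (median 0.03), where 6 of 10 members were higher. For scramble over lipofectamine 6 of 7 were lower (median −0.51), where 8 of 10 members were lower. The means were 6.15 to 8.46 for 5 dendritic cell genes, 8.41 to 10.35 for 5 B cell genes and 5.79 to 8.38 for 5 T and NK cell genes, with no marker at 0 on any array. Single genes of these lists overlapped in level with those of the macrophage. Over 12 arrays the B cell genes ran from 5.96 (*Pax5*) to 12.41 (*Ms4a1*), and the macrophage genes from 8.47 (*Itgam*) to 16.94 (*Lyz2*). Mesothelial genes, which mark the lining of the peritoneum, averaged 6.73 to 8.13 with miR-21 exosomes and 5.52 to 7.91 with GFP exosomes over 6 genes, of which 5 were higher with miR-21 exosomes (median log2 fold change 1.36), opposite to *Nlrc5* and *Tap2*. Mast cell genes averaged 6.81 to 8.71 and sensory neuron genes 5.46 to 7.88 over the arrays. Over all transfections, limma called some markers for miR-21 over GFP exosomes at an unadjusted p under 0.05, beside 5.45% of genes. These were 1 of 5 B cell genes and 1 of 6 mesothelial genes, both higher. Of 5 T and NK cell genes 1 was called higher and 1 lower. The other 4 B cell genes were lower. After scramble 3 of 5 T and NK cell genes were called (1 higher, 2 lower), beside 5.7% of genes. There all 5 B cell genes were higher, without a call. After lipofectamine 1 of 5 B cell genes was called higher with miR-21 exosomes, beside 3.84% of genes. After antagomir-21 1 of 6 sensory neuron genes was called higher, beside 5.68%. For antagomir-21 over scramble 1 of 5 T and NK cell genes was called higher, beside 5.16%. In that comparison 1 of 6 mesothelial and 1 of 6 sensory neuron genes were called lower. For scramble over lipofectamine 1 of 5 mast cell genes was called higher and 1 of 5 dendritic cell genes lower, beside 4.14%. For antagomir-21 with GFP exosomes 1 of 7 macrophage genes was called higher and 1 of 6 sensory neuron genes lower, beside 5.38%. With miR-21 exosomes 1 of 5 T and NK cell genes was called higher and 1 of 5 dendritic cell genes lower, beside 5.3%. The interaction had 1 of 5 dendritic cell and 1 of 5 T and NK cell genes called higher, beside 5.36%. The part of these cells in the differences of the members was not tested. In bulk RNA, fewer cells of a type and less RNA per cell cannot be told apart.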

How the data were processed

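The values the authors deposited are log2 probe set signals from 12 Affymetrix mouse expression arrays. The study's methods name RMA in the affy package, which includes quantile normalization, but the deposited arrays differ in median (7.92 to 8.58) and SD (2.04 to 2.48) and share a trimmed mean (496 to 499 on the linear scale), so they are not quantile normalized. For the software that made them, the sources used here give no name. The amplification kit is from Nugen in the labels, while the methods name WT Pico. Values ran from 0 to 19.26, of which 11 were exactly 0, and how far a signal stood above background is not known.

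Of 45037 probe sets, the platform annotation gave 1 gene symbol to 34945, several to 932 and no entry for 9160. Symbols of 34741 were updated by gene ID through RefSeq. Each of 18193 genes was represented by its brightest single-symbol probe set. Groups came from the sample titles. The methods state 3 biological replicates and 2 per group are analyzed here, and as the labels do not say whether they were separate cultures, p-values measure the spread between these arrays.

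The 9 comparisons were fitted in limma 3.58.1 under R 4.3.3 (6 group means, moderated by eBayes, 2-sided, with 6 residual degrees of freedom) with Benjamini-Hochberg adjustment over all genes. Calls at the methods' own threshold, an unadjusted 0.05, are also given. The fit was tested on simulated data. Arrays of equal replicate number shared little: deviations from group means correlated between groups at −0.192 to 0.167 over 15 pairs. The labels do not say whether arrays of equal number belong together, and these correlations cannot decide it. Alternatives were quantile normalization, median centering, other choices of probe set, a filter on dim genes, a variance trend, a replicate block and leaving out each array.

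The text names all members, related genes with an unadjusted p under 0.05 in a comparison described and up to 4 more of each list, with some lists named whole, and the 5 genes most correlated with the members' mean. Called markers of cell types are counted without names. The members and lists were chosen with earlier results of these data known. The differences of exosome effects between lipofectamine and the other transfections were added after the values were seen. Promoter and miRNA sequences came from RefSeq tables (GRCm38.p6). No coordinates were given to probe sets.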

Additional observations from a re-analysis of the deposited data

Results flagged for a closer look

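In *Tap1* and *Tap2*, both arrays with miR-21 exosomes lay above both with GFP exosomes after lipofectamine and below both after scramble, and for *Tap2* also after antagomir-21. Opposite directions without overlap occurred in 4.02% of genes for lipofectamine and scramble and in 5.38% for lipofectamine and antagomir-21. *Tap2* had a log2 fold change of 1.27 after lipofectamine, against −2.27 after scramble and −1.78 after antagomir-21, and *Tap1* had 1.19 after lipofectamine and −1.44 after scramble. Leaving out 1 array moved the *Tap2* values to 0.62 to 1.93 after lipofectamine, −2.88 to −1.67 after scramble and −2.14 to −1.41 after antagomir-21, and those of *Tap1* to 0.74 to 1.64 after lipofectamine and −2.54 to −0.34 after scramble. The differences between these effects were tested after the values were seen. For *Tap2* the effect after lipofectamine minus that after scramble was 3.55 (SE 1.29, 95% CI 0.68 to 6.41, limma adjusted p = 1), and minus that after antagomir-21 it was 3.05 (SE 1.29, limma adjusted p = 0.999). For *Tap1*, lipofectamine minus scramble was 2.62 (SE 1.44, limma adjusted p = 1). The *Tap1* effect after scramble reversed to 0.61 as the mean of its probe sets and to 4.44 with the most variable one. The value of 4.44 passed an unadjusted 0.05 (limma adjusted p = 0.869). Both tests of *Tap2* share the lipofectamine arrays. Both *Tap2* values had an unadjusted p under 0.05, as did 3.8% of all genes against scramble and 4.83% against antagomir-21.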

How the results depend on the processing

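At an adjusted p under 0.05, limma called no member in any comparison under any alternative run. The number of the 10 members at an unadjusted p under 0.05 changed as follows. Quantile normalization gave 2 for the exosomes over all transfections (1 as deposited), 2 after scramble (1) and 1 after antagomir-21 (0). The variance trend gave 3 for antagomir-21 over scramble with both exosomes, 1 with GFP exosomes and 1 with miR-21 exosomes (0 each). The filter on dim genes gave 2 for the exosomes after scramble and 1 after antagomir-21. The most variable probe set of each gene gave 1 for scramble over lipofectamine, 1 for antagomir-21 with miR-21 exosomes, 1 for the exosomes after antagomir-21 and 2 for the interaction (0 each). The replicate block gave 0 for the exosomes over all transfections, where the call of *Nlrc5* was lost (log2 fold change −1.21, limma adjusted p = 0.923), and changed no other count. Some calls changed behind counts that stayed the same. The most variable probe set lost the call of *Nlrc5* for the exosomes over all transfections, where another member was called instead. After scramble it lost *Tap2* and gained *Tap1* at 4.44, opposite in direction to the *Tap1* value as deposited (limma adjusted p = 0.869). The variance trend lost *Tap2* and gained *Nlrc5* after scramble.

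Leaving out each array in turn gave 0 to 1 calls for the exosomes over all transfections, 0 to 2 for antagomir-21 with both exosomes, 0 to 1 for scramble over lipofectamine, for antagomir-21 with miR-21 exosomes and for the interaction, and 1 to 2 for the exosomes after scramble. Without replicate 2 of scramble with miR-21 exosomes, *Psmb10* had 0.07 for scramble over lipofectamine, 0.24 for the exosomes after scramble and −0.54 for the interaction. Without replicate 1 of that group, which leaves the low array alone, limma called *Psmb10* at an unadjusted p under 0.05 in the 6 comparisons named for it that use the group, with −1.82, −3.54 and 3.24 for these 3. *H2-K1* ran from −1.91 to 0.24 for the interaction, and had 0.10 without replicate 1 of scramble with GFP exosomes.

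The most variable probe set reversed *Mr1* for the exosomes (0.41), *H2-D1* (−1.30) and *Tapbp* (−0.57) for antagomir-21 over scramble, *H2-K1* (0.72) and *Tapbp* (0.77) for scramble over lipofectamine, *H2-K1* (−0.08) and *H2-D1* (−2.62) for antagomir-21 with GFP exosomes, *Tap1* for the exosomes after scramble (4.44; 0.61 as the mean of its probe sets) and for antagomir-21 with GFP exosomes (0.40; 0.51 as that mean), and *H2-K1* for the interaction (1.28). The cause was not tested. Neither scaling reversed a fold change in this paragraph, whereas those of 8 members near 0 changed sign with the scaling in some comparison. The number of arrays limits all of them.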
